A study of Mus musculus with 54 samples.

Results

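Meningeal fibroblast genes were followed in RNA-seq of mouse brain, as a group of 10 genes out of the 47069 genes of the count table. The members were taken by name: Dcn, Lum, Ogn, Slc6a13, Slc22a6, Slc47a1, Aldh1a2, Foxd1, Ptgds and Igfbp2, each found as 1 row of the table through its Ensembl identifier. Their levels did not enter the choice, but the group was proposed with earlier results of these data known. The cerebellum, cortex and striatum of 18 C57BL/6 mice at 8 weeks of age were sequenced, with 1 library per mouse and region. Of these mice, 10 (5 females and 5 males) were Mbd5+/GT, carrying on 1 copy of Mbd5 a gene-trap insertion, a hypomorphic allele of the germline that is not limited to a cell type, and 8 (5 females and 3 males) were wild-type (WT). They came from 3 litters. Litter 1 was all female, with 3 Mbd5+/GT and 3 WT mice, litter 2 was all male, with 4 Mbd5+/GT mice and 1 WT mouse, and litter 3 held both sexes, with 3 Mbd5+/GT and 4 WT mice. Litter and sex cannot be told apart between litters 1 and 2. The questions were how high each gene stood in each region, how much it varied over mice, and whether it differed between genotypes.

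The meninges are the membranes that wrap the brain, and their inner layers, the arachnoid and the pia, follow its surface and the larger vessels that enter it. Their fibroblasts build a collagen-rich matrix, carry transporters that exchange solutes with the cerebrospinal fluid, and make retinoic acid, a signal that the developing cortex receives from them. In bulk samples, fewer cells of a type and less RNA per cell cannot be told apart, and this holds for every level given here. Ptgds and Igfbp2 are also known from other brain cells, Ptgds from oligodendrocytes and choroid plexus and Igfbp2 from choroid plexus and astrocytes. The other 8 genes, from Dcn to Foxd1, are referred to as the restricted members.

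The deposited values were read counts per gene, and the libraries held between 25295973 and 49027399 reads on genes, with a median of 29073866. Mbd5, the targeted gene, was lower in Mbd5+/GT mice in each region, with a log2 fold change (log2FC) of -0.34 ± 0.05 (SE) in cerebellum, -0.49 ± 0.05 in cortex and -0.51 ± 0.05 in striatum (adjusted p = 0.00912, 0.00012 and 9.4e-05, edgeR's quasi-likelihood test). The region labels were checked against neuron markers of each region. In 4 libraries the summed level of these markers, in CPM (reads of a gene scaled to a fixed total of reads on genes), was less than the regional median divided by 3. In cerebellum, markers of cerebellar neurons (Cbln1, Cbln3, Gabra6, Pcp2 and Neurod1) summed to 66.8 CPM in the Mbd5+/GT library of mouse M755 and to 1213 CPM in the WT library of mouse M754, against a median of 3934 CPM. In striatum, markers of striatal neurons (Drd1, Drd2, Ppp1r1b, Adora2a and Rgs9) summed to 107.8 CPM in the WT library of mouse M754 and to 300.2 CPM in the WT library of mouse M761, against a median of 1886 CPM, and the Mbd5+/GT library of mouse M763, at 34.6% of the median, was just above the limit. No cortex library was among them. These 4 libraries were low in the neuron markers of their region to different degrees. In cerebellar neuron markers both cerebellum libraries still lay above every cortex library (at most 53.5 CPM) and every striatum library (at most 26.9 CPM). In striatal neuron markers both striatum libraries lay inside the range of cortex, 81.7 to 936 CPM. The tests of the members between regions, between genotypes and for correlation with Dcn are given with and without these 4 libraries. Relations with the summed markers of other cells are given with all 18 libraries of a region only. Another 2 WT striatum libraries, of mice M751 and M752, were labelled as repeated.

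Positions are those of GRCm38, where Dcn and Lum are neighbours. Dcn (ENSMUSG00000019929, chr10:97479609-97518143, plus strand) ends 46984 bases before Lum (ENSMUSG00000036446, chr10:97565128-97572703, plus strand) begins, with 0 protein-coding genes between them, and Kera and Epyc, which encode proteoglycans of the same family, lie in the same 200000-base surroundings. Ogn (ENSMUSG00000021390, chr13:49608046-49624501, plus strand) lies in a second such cluster with Omd, Aspn and Ecm2. The gene Cenpp overlaps Ogn on the opposite strand but shares 0 exon bases with it, and its highest count in any library was 53. The transporter genes are Slc6a13 (ENSMUSG00000030108, chr6:121300227-121337733, plus strand), Slc22a6 (ENSMUSG00000024650, chr19:8618039-8628299, plus strand) and Slc47a1 (ENSMUSG00000010122, chr11:61343401-61378345, minus strand). Aldh1a2 (ENSMUSG00000013584) is at chr9:71215789-71296243 on the plus strand and Foxd1 (ENSMUSG00000078302) at chr13:98354242-98359305 on the plus strand. Ptgds (ENSMUSG00000015090) is at chr2:25466709-25470046 on the minus strand and Igfbp2 (ENSMUSG00000039323) at chr1:72824503-72852474 on the plus strand. The values of each gene count reads over its exons.

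RefSeq promoter sequences (GRCm38.p6) were at hand for 7 of the 10 members, all but Dcn, Lum and Slc47a1, and the 250 bases before each start site were searched on both strands for 7 short motifs. The motif GGAATG, to which TEAD factors are known to bind, was found in Ogn at -86 bases from the start site, in Slc6a13 at -91 and, as its reverse complement CATTCC, in Slc22a6 at -102. It was not found in the windows of Aldh1a2, Foxd1, Ptgds and Igfbp2, and 12.6% of the 27025 mouse promoters of this length hold it. The TATA box TATAAA was found in Ogn only, with 2 overlapping matches on opposite strands (13% of promoters). The AP-1 motif TGANTCA was found in Ptgds only, at -35 (6.87%). The forkhead motif TGTTTAC (3.09%) and the DR5 element of retinoic acid receptors (0.0074%) were in none of the 7. The E box CANNTG was in all 7 (66.0% of promoters) and the GC box GGGCGG in Slc6a13, Foxd1 and Igfbp2 (32.9%). A match is a description of the letters and not a binding site. The promoters of the 2 transporters and the proteoglycan that hold GGAATG, and of Aldh1a2, whose level followed that of Slc22a6 most closely of all members in cortex and striatum, are shown on their coding strand, with matches to the TATA box, TEAD, AP-1 and forkhead motifs in capitals.
Ogn, chr13:49607765-49608014, plus strand: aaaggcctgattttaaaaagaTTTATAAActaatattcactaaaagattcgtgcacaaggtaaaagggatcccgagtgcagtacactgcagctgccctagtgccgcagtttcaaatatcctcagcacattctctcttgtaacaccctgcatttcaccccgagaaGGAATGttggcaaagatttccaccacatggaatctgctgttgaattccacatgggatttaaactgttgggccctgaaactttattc
Slc6a13, chr6:121300038-121300226, plus strand (189 bases, ending before the annotated gene): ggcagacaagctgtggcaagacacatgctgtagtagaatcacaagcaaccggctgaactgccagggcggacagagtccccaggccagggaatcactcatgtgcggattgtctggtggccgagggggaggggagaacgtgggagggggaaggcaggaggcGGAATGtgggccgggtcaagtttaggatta
Slc22a6, chr19:8617746-8617995, plus strand: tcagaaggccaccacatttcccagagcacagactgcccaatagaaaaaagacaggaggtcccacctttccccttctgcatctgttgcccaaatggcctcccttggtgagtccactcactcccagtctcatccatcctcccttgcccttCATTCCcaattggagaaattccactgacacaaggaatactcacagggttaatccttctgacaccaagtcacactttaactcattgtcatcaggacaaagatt
Aldh1a2, chr9:71215539-71215788, plus strand: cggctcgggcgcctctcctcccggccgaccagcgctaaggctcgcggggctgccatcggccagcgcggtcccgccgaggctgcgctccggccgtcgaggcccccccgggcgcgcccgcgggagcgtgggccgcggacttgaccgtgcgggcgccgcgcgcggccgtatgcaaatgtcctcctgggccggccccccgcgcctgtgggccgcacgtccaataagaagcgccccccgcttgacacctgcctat

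All 10 members were detected in all 54 libraries, and all 10 passed the filter on low counts in each region. Between genes, levels were compared as RPKM, which is CPM divided by the length of the merged exons in kilobases. Ptgds, which encodes the synthase that makes prostaglandin D2 and is abundant in cerebrospinal fluid, stood far above the rest, with median RPKM levels of 499.5 (cerebellum), 412 (cortex) and 276 (striatum). Igfbp2, a secreted protein that binds insulin-like growth factors, came next with 10.3, 16.0 and 14.3. The restricted members lay below both in each region. In cerebellum their median RPKM levels ran from 5.56 for Ogn, 4.13 for Dcn, 4.03 for Slc6a13 and 3.44 for Aldh1a2 down to 1.90 for Slc47a1, 1.51 for Lum, 1.49 for Slc22a6 and 0.181 for Foxd1. In striatum they ran from 1.99 for Slc6a13 down to 0.130 for Foxd1. Foxd1, the transcription factor of the group, was the lowest in all regions, and its counts ran from 9 to 52 reads a library. In cerebellum the median of each of Dcn, Slc6a13 and Aldh1a2 lay inside the ranges over mice of the other 2, so the order of these neighbours was within their spread. In cortex it was not for Dcn, whose highest library (3.66 RPKM) lay below the median of Slc6a13 (3.96).

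The proteoglycan genes were lowest in striatum. Dcn encodes decorin, which binds collagen fibrils, and its CPM level (lowest, median and highest of 18 mice) was 16.6, 24.1 and 34.2 in cerebellum, 7.56, 13.8 and 21.4 in cortex and 2.06, 7.13 and 13.9 in striatum. Every cerebellum library was therefore above every striatum library, and within each mouse the order was the same, with striatum below cortex and cortex below cerebellum in 18 of 18 mice. The median ratio of striatum to cerebellum within a mouse was 26.6%. Lum encodes lumican, a keratan sulfate proteoglycan, and stood at 2.24, 3.69 and 8.34 CPM in cerebellum, 1.74, 3.21 and 6.15 in cortex and 0.154, 1.44 and 3.95 in striatum. The regions overlapped for Lum, but striatum was below cortex in 17 of 18 mice. Ogn encodes osteoglycin, a proteoglycan of the same family. It stood at 3.90, 14.3 and 20.9 CPM in cerebellum, 5.99, 14.2 and 21.2 in cortex and 0.893, 3.61 and 10.5 in striatum. For Ogn the medians of cerebellum and cortex were near each other, and striatum was below cortex in 18 of 18 mice, at a median ratio of 21.5%.

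The transporter genes were lowest in striatum as well, and Slc22a6 had its highest median in cortex. Slc6a13 encodes GAT2, a carrier of GABA and taurine, and its CPM level was 4.77, 11.7 and 19.9 in cerebellum, 7.56, 11.5 and 20.7 in cortex and 2.34, 5.77 and 13.5 in striatum. Slc22a6 encodes the organic anion transporter OAT1 and stood at 0.576, 5.94 and 11.9 CPM in cerebellum, 4.71, 8.30 and 16.3 in cortex and 0.704, 2.93 and 9.11 in striatum. Its lowest cerebellum value was that of mouse M755, the library almost without cerebellar neuron markers, and the next lowest Mbd5+/GT value was 4.96 CPM. Slc47a1 encodes the extruder of organic cations MATE1, and it stood at 3.02, 6.42 and 9.45 CPM in cerebellum, 3.01, 4.80 and 8.71 in cortex and 0.727, 1.50 and 5.01 in striatum. Each of the 3 transporters was lower in striatum than in cortex in 17 of 18 mice. The median ratio of striatum to cortex within a mouse was 48.9% for Slc6a13, 22.0% for Slc22a6 and 30.1% for Slc47a1. For Slc22a6 cortex was below cerebellum in 5 of 18 mice, at a median ratio of 132%.

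Aldh1a2, the dehydrogenase that makes retinoic acid from retinaldehyde, stood at 5.53, 7.79 and 13.2 CPM in cerebellum, 3.91, 8.06 and 15.4 in cortex and 1.05, 3.33 and 9.34 in striatum, and striatum was below cortex in 18 of 18 mice. Foxd1, a forkhead transcription factor, stood at 0.459, 0.916 and 1.78 CPM in cerebellum, 0.608, 0.908 and 2.06 in cortex and 0.277, 0.657 and 1.52 in striatum. Its regions overlapped over most of their ranges, and striatum was below cortex in 15 of 18 mice. Ptgds stood at 559, 824 and 1362 CPM in cerebellum, 409, 679 and 1437 in cortex and 261, 455 and 849.8 in striatum. It was lower in striatum than in cortex in 14 of 18 mice. Igfbp2 departed from the other members, with 10.5, 19.0 and 57.4 CPM in cerebellum, 23.1, 29.5 and 66.6 in cortex and 8.60, 26.3 and 75.0 in striatum. Its striatum held both the lowest and the highest library of the 54, and its cortex was below its cerebellum in only 2 of 18 mice.

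**Figure D1:**
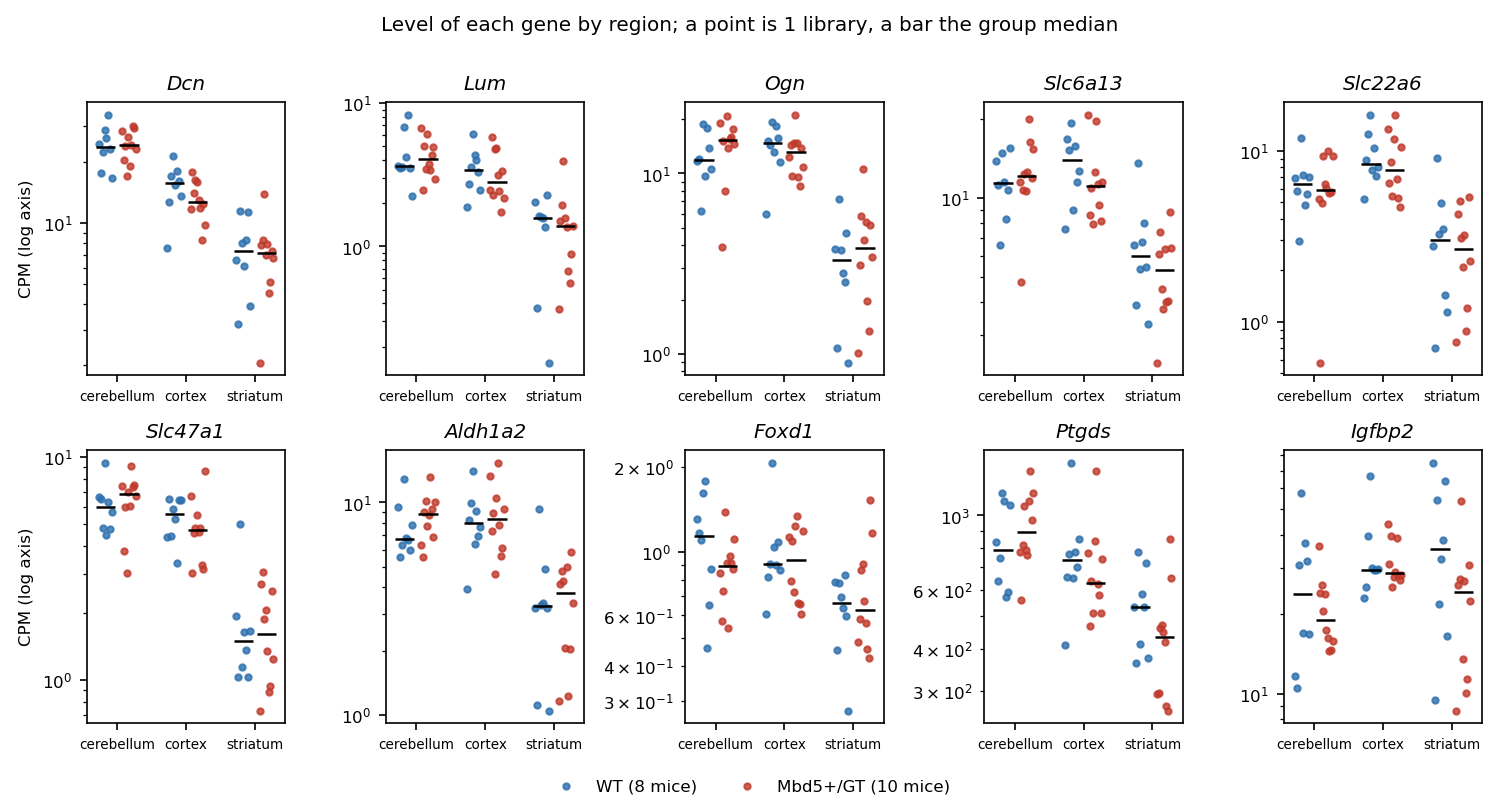
CPM of each of the 10 genes on log axes, by region, for the 8 WT mice (blue) and 10 Mbd5+/GT mice (red). A point is 1 library and a bar the median of its group. Striatum lies lowest for every gene but Igfbp2, and the genotypes overlap in all panels.

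The members were tested between regions in 1 fit of edgeR's quasi-likelihood model over the 54 libraries, with adjustment over 20477 genes. Of the 10 members, 9 were lower in striatum than in cortex at an adjusted p under 0.05, all but Igfbp2. Regions differ in many genes, and of all genes tested 58.9% passed in either direction and 30.1% passed as lower in striatum. The log2FC of striatum against cortex was -1.89 ± 0.23 (SE) for Ogn (adjusted p = 3.9e-09), -1.61 ± 0.27 for Slc22a6 (adjusted p = 1.9e-06) and -1.54 ± 0.19 for Slc47a1 (adjusted p = 2.7e-09). It was -1.33 ± 0.24 for Lum, -1.31 ± 0.21 for Aldh1a2, -1.13 ± 0.17 for Slc6a13 and -1.01 ± 0.15 for Dcn, with adjusted p of at most 7.8e-06. The smallest of the 9 were Ptgds with -0.64 ± 0.15 (adjusted p = 0.00033) and Foxd1 with -0.54 ± 0.17 (adjusted p = 0.007). Igfbp2 had a log2FC of -0.17 ± 0.22 and an adjusted p of 0.51. The median over the members was -1.22, against -0.0017 over all genes tested.

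Against cerebellum, the same 9 members were lower in striatum, where 75.2% of all genes passed in either direction and 38% as lower in striatum. The log2FC of striatum against cerebellum was -1.84 ± 0.23 for Ogn, -1.78 ± 0.19 for Slc47a1, -1.74 ± 0.16 for Dcn and -1.64 ± 0.24 for Lum. The other called members ran from -1.20 ± 0.21 for Aldh1a2 to -0.51 ± 0.17 for Foxd1 (adjusted p = 0.0073). Between cerebellum and cortex, 2 of the 10 members passed, against 68.9% of all genes tested, a share below the background. Dcn was lower in cortex (log2FC -0.73 ± 0.15, adjusted p = 3.4e-05) and Igfbp2 was higher (0.53 ± 0.22, adjusted p = 0.031). Slc22a6 had a log2FC of 0.56 ± 0.26 and an adjusted p of 0.051, and it passed with DESeq2's size factors (adjusted p = 0.0425) and with DESeq2's Wald test (adjusted p = 0.0334). Igfbp2 missed the threshold in that contrast with WT mice only (adjusted p = 0.359) and with no filter on low counts (adjusted p = 0.0795).

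The fall in striatum did not rest on the 4 libraries low in their region's neuron markers. Without them 9, 9 and 2 members passed in the 3 contrasts, and the log2FC of striatum against cortex was -2.01 ± 0.22 for Ogn, -1.86 ± 0.24 for Slc22a6 and -1.58 ± 0.20 for Aldh1a2. With the mouse as a replicate block, 9, 9 and 2 members passed as well. Within each of the 3 litters, the median difference within mice of striatum against cortex and of striatum against cerebellum was below 0 for 9 of the 9 members other than Igfbp2. Between cortex and cerebellum the litters differed, with a median difference below 0 for 3 of these 9 members in litter 1, 9 in litter 2 and 4 in litter 3.

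**Figure D2:**
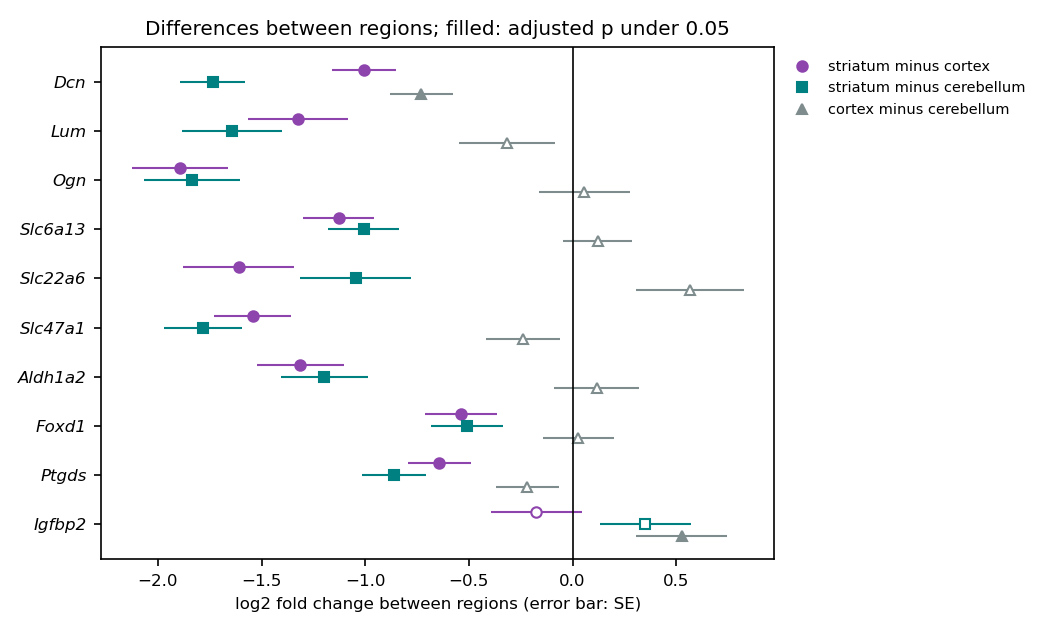
Log2 fold change between regions for each gene (x axis, with SE bars) in 3 contrasts, from the fit over 54 libraries, where filled symbols have an adjusted p under 0.05. The striatum contrasts lie left of 0 for every gene but Igfbp2, between -1.89 and -0.51, while only Dcn and Igfbp2 passed between cerebellum and cortex.

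Related genes of the same roles were counted in lists that include the members, and each count stands against 30.1% of all genes that passed as lower in striatum than in cortex and 28.9% that passed as higher. Of the leptomeningeal solute carriers, 9 of 11 were lower in striatum than in cortex and 0 were higher. The meningeal transcription factors, among them Foxc1, Foxc2 and Tbx18, were lower in 9 of 9. Of the small leucine-rich proteoglycans tested, 6 of 8 were lower and 0 higher. The wider list of fibroblast matrix and surface genes, which brain vessels also express, was less uniform, with 7 of 12 lower and 2 higher. Genes of the retinoic acid pathway, Aldh1a2 among them, were mixed, with 3 of 15 lower, a share below that of all genes, and 6 higher. The same test put 4 of 5 genes of the prostaglandin D pathway lower. Of 10 genes of the insulin-like growth factor pathway, 2 were lower and 1 higher, both counts below the shares of all genes. Markers of border macrophages, which live in the meninges and around vessels, were lower in striatum in 5 of 6 genes, and their summed level had a median of 19.4 CPM in cortex and 8.53 CPM in striatum. Markers of other cells were mixed. Endothelial markers were lower in 4 of 8 and higher in 2, mural markers, with 2 of 8 lower and 1 higher, were below the shares of all genes, and oligodendrocyte markers were higher in 8 of 8 and ependymal markers in 5 of 5. Choroid plexus markers were higher in 7 of 10. The arachnoid barrier list had 4 of 5 lower and 1 higher, astrocyte markers 3 of 6 lower and 1 higher, and erythrocyte markers 1 of 5 higher. The medians of log2FC were -1.13 for the solute carriers, -1.20 for the proteoglycans, -0.84 for the transcription factors, -1.17 for the macrophage markers and -0.23 for the endothelial markers.

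The members varied more over mice than most genes, above all in striatum. The spread was taken as edgeR's biological coefficient of variation (BCV), the relative SD over mice of a genotype beyond counting error. All 18 libraries of a region entered, those low in their region's neuron markers included, and no value without them is given. In striatum the BCV of the members ran from 0.335 for Ptgds to 0.653 for Slc22a6, where the median of all genes tested was 0.221, and the median member lay at the 91.2 percentile. In cortex the members ran from 0.250 for Dcn to 0.362 for Slc22a6 (median of all genes 0.171), and the median member lay at the 83.1 percentile. In cerebellum they ran from 0.219 for Dcn to 0.494 for Slc22a6 (median of all genes 0.241), with the median member at the 71.0 percentile. Since low genes vary more, each BCV was also set against the trend at the gene's own level. This ratio lay above the 75th percentile of all genes in 4 members in cerebellum, 9 in cortex and 9 in striatum. It was highest for Igfbp2 in striatum (98.7 percentile), Ptgds in cortex (96.5) and Slc22a6 in cortex (95.3). Foxd1, the lowest gene, varied about as genes of its level do, at the 40.8, 56.0 and 51.4 percentile in cerebellum, cortex and striatum.

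The mice that stood apart did so in several members together. Over the 8 restricted members, mouse M757 (WT) was highest in cerebellum and cortex, with a mean log2 CPM of 3.38 and 3.39. Mouse M755 (Mbd5+/GT) was lowest in cerebellum with 1.64, mouse M751 (WT) lowest in cortex with 1.93, and mouse M754 (WT) highest in striatum with 2.43. Libraries M755 in cerebellum and M754 in striatum are among those low in their region's neuron markers, while the library of mouse M751 in cortex is not. In striatum the mean ran from 0.01 to 2.43 with an SD of 0.70, against 0.35 in cortex and 0.36 in cerebellum. The highest striatum library was thus still below the median of cerebellum, 2.78, and of cortex, 2.67. The genotype medians were 2.90 in Mbd5+/GT and 2.71 in WT mice in cerebellum, 2.57 and 2.74 in cortex and 1.50 and 1.47 in striatum.

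**Figure D3:**
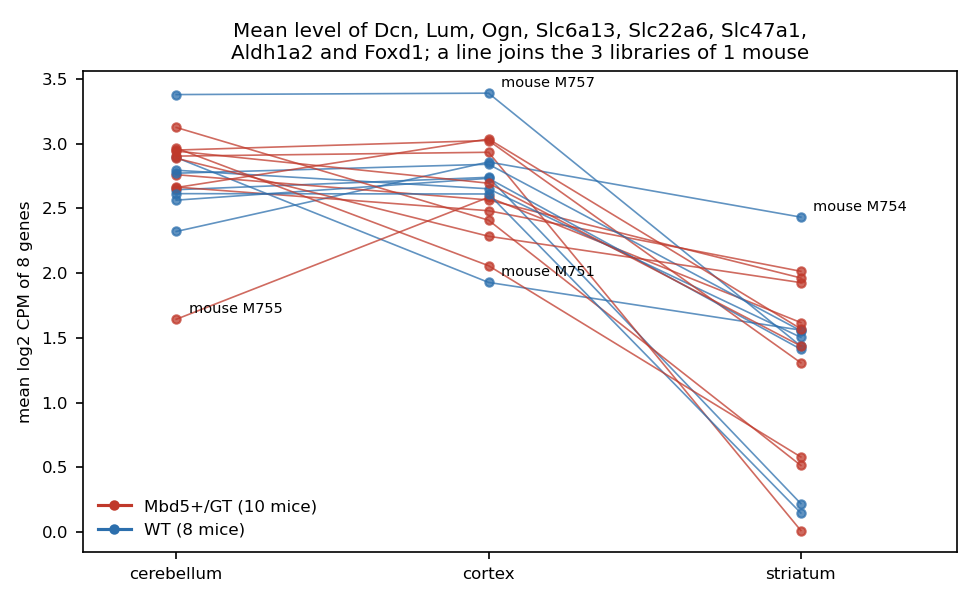
Mean log2 CPM of the 8 restricted members (y axis) in each region, with a line joining the 3 libraries of 1 mouse, WT in blue and Mbd5+/GT in red. The mean runs from 1.64 to 3.38 in cerebellum, 1.93 to 3.39 in cortex and 0.01 to 2.43 in striatum, and the lines cross between regions.

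Levels of the members over mice were compared by their correlation with Dcn in each region, as 27 relations over 18 mice each with permutation p adjusted over the 27. In cortex only the other proteoglycans went with Dcn, Lum with r = 0.88 (rho = 0.85, adjusted permutation p = 9e-05) and Ogn with r = 0.83 (rho = 0.74, adjusted permutation p = 0.00013). In cerebellum Lum (r = 0.78, rho = 0.79, adjusted permutation p = 0.00046), Ogn (r = 0.56, rho = 0.74, adjusted permutation p = 0.034) and Slc47a1 (r = 0.52, rho = 0.63, adjusted permutation p = 0.049) did so. In striatum all 9 did, from r = 0.56 for Slc47a1 (rho = 0.50, adjusted permutation p = 0.034) and Foxd1 (rho = 0.62, adjusted permutation p = 0.035) to r = 0.89 for Ogn (rho = 0.84, adjusted permutation p = 9e-05). The share of all genes that went with Dcn in a region is not given, so these counts have no background. Leaving out the 2 mice farthest from the median of Dcn, r fell to 0.65 for Lum in cerebellum, 0.67 for Ogn in cortex and 0.38 for Slc47a1 in striatum, and 2, 2 and 4 members passed in cerebellum, cortex and striatum. Without the 4 libraries low in their region's neuron markers, 2, 2 and 6 passed. Lum and Ogn passed in every region in both of these settings, except Ogn in cerebellum without the 2 farthest mice (adjusted permutation p = 0.069). Within litters, Lum and Ogn had r above 0 in both litters with at least 6 mice in each region, from 0.39 to 0.96. In striatum the relations of the transporters with Dcn did not hold in both litters. In litter 1 (6 mice) r was -0.28 for Slc6a13, -0.43 for Slc22a6 and -0.21 for Slc47a1. In litter 3 (7 mice) it was 0.93, 0.96 and 0.85. In cerebellum Slc47a1 had r of 0.62 with Dcn in litter 1 and 0.59 in litter 3. Litter 2, with 5 mice, was too small for a value. In cortex r with Dcn is also given by genotype, and the difference between genotypes was not tested. In the 8 WT mice r was 0.72 for Slc6a13, 0.83 for Slc22a6, 0.89 for Aldh1a2, 0.80 for Foxd1 and 0.86 for Ptgds, beside 0.90 for Lum and 0.94 for Ogn. In the 10 Mbd5+/GT mice the first 5 of these genes had r from -0.16 to 0.11, and Lum and Ogn 0.90 and 0.70.

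Among the restricted members as a whole, the 28 pairs had a median r over mice of 0.42 in cerebellum and 0.48 in cortex and of 0.71 in striatum, given as a description. The closest pairs were Slc6a13 and Slc22a6 in cerebellum (r = 0.86) and Slc22a6 and Aldh1a2 in cortex (r = 0.93) and striatum (r = 0.92). Slc47a1 had r near 0 with Dcn (-0.05) in cortex, and Ptgds had r of 0.88 with Slc22a6 there. In cortex, Dcn had r of 0.31 to 0.50 with Slc6a13, Slc22a6, Aldh1a2, Foxd1 and Ptgds over all 18 mice, and none passed. Lum had r of 0.09 to 0.40 with these 5 genes and Ogn of 0.47 to 0.54. With Dcn, the 5 genes had r of -0.16 to 0.11 in Mbd5+/GT mice and of 0.72 to 0.89 in WT mice. The highest and lowest cortex libraries over the restricted members, of mice M757 and M751, were both WT. Without the 2 mice farthest from the median of Dcn, the 5 genes had r of -0.01 to 0.28 over both genotypes. They had r of -0.70 to -0.38 in litter 1 (6 mice) and of 0.40 to 0.70 in litter 3 (7 mice). Whether genotype has a part in this was not tested. Igfbp2 had r from -0.34 to 0.56 with the restricted members in cerebellum, from 0.16 to 0.63 in cortex and from 0.52 to 0.80 in striatum.

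**Figure D4:**
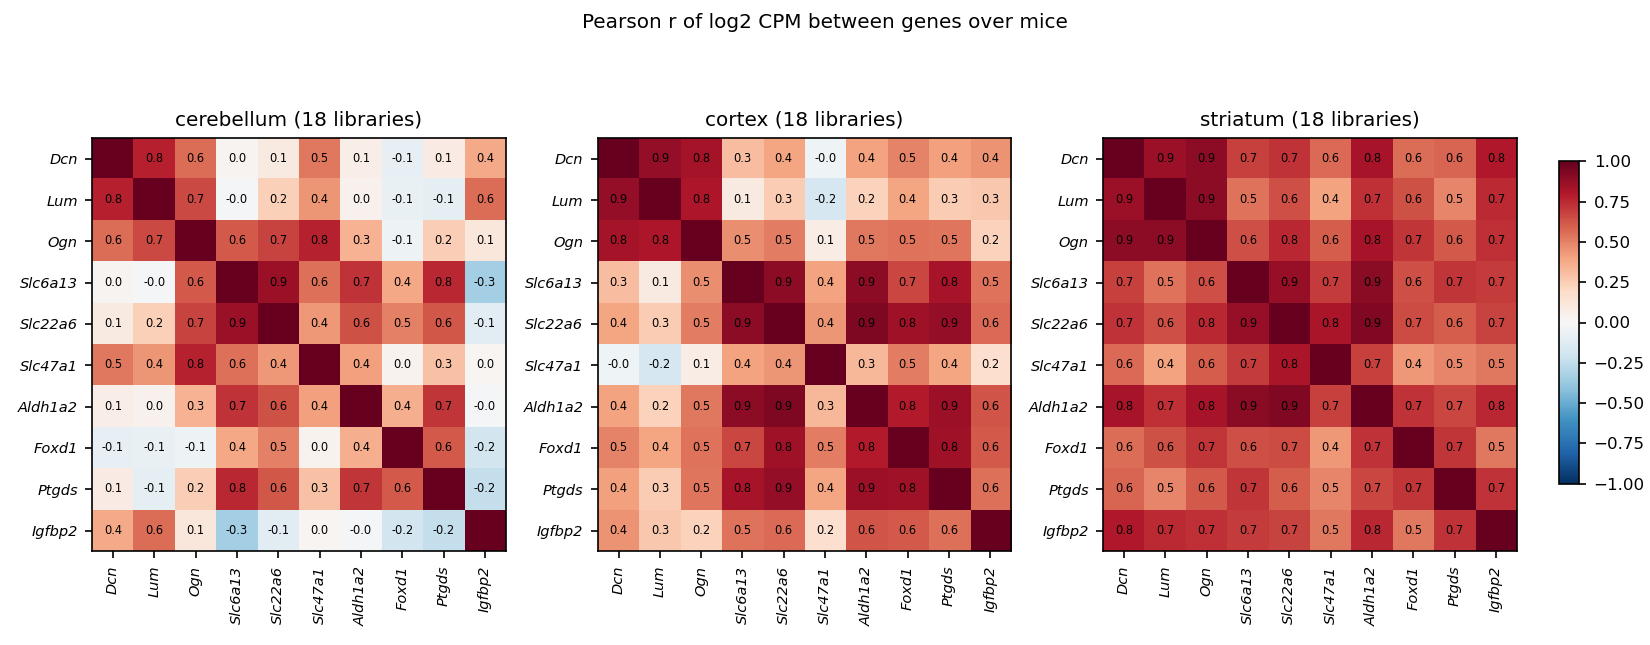
Pearson r of log2 CPM over 18 libraries between each pair of the 10 genes, by region, on a scale from blue (-1) to red (1). Striatum is red throughout, while in cerebellum and cortex Dcn is closest to Lum and Ogn (r of 0.56 to 0.88), with both genotypes pooled. In the WT mice alone, which are not drawn, Slc6a13, Slc22a6, Aldh1a2 and Ptgds had r of 0.72 to 0.89 with Dcn in cortex. In litter 1 (6 mice of both genotypes) the same genes had r of -0.70 to -0.38.

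A mouse that was high in a region was in general not shown to be high in another. Of 30 relations of a member between 2 regions over 18 mice, 1 passed, Igfbp2 between cerebellum and cortex (r = 0.74, rho = 0.70, adjusted permutation p = 0.014). Without the 2 mice farthest from the median its r was 0.68, and 0 of the 30 passed in that setting. In the 15 mice without a library low in its region's neuron markers, its r was 0.81 (adjusted permutation p = 0.027). The rho there was 0.69 (adjusted permutation p = 0.17). Dcn had r of 0.43 between cortex and striatum (adjusted permutation p = 0.46), with rho of 0.67 (adjusted permutation p = 0.043), and -0.05 between cerebellum and cortex (rho = -0.10, adjusted permutation p = 0.98).

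Markers of other cells were set beside Dcn, Ptgds and Igfbp2, as 108 relations over 18 mice. Dcn went with the summed border macrophage markers in striatum (r = 0.87, rho = 0.88, adjusted permutation p = 0.0011). Without the 2 mice farthest from the median of the marker sum, r was 0.82. This sum ran from 3.59 to 19.9 CPM there with 6 of 6 genes detected. Dcn also went with the cerebellar neuron markers in striatum (r = 0.77, rho = 0.82, adjusted permutation p = 0.0061), which ran from 7.08 to 26.9 CPM. Here r was 0.68 without the 2 mice farthest from the median of these markers. In cerebellum Ptgds went against the astrocyte markers (r = -0.75, rho = -0.70, adjusted permutation p = 0.0061) and with the striatal neuron markers (r = 0.71, rho = 0.80, adjusted permutation p = 0.0062). Igfbp2 and the choroid plexus markers had r of 0.67 in cerebellum (rho = 0.61, adjusted permutation p = 0.051) and 0.64 in striatum (rho = 0.53, adjusted permutation p = 0.077). Igfbp2 and the border macrophage markers had r of 0.66 in striatum (rho = 0.63, adjusted permutation p = 0.051). None of these relations of Igfbp2 passed. Ptgds and the border macrophage markers had r of 0.57 in cortex (adjusted permutation p = 0.14), with rho of 0.70 (adjusted permutation p = 0.038). The choroid plexus sum ran from 20.4 to 2596 CPM in cerebellum, from 10.2 to 1277 CPM in cortex and from 14.9 to 6266 CPM in striatum, with 10 of 10 genes detected in each region. What part these cells have in the levels of Dcn, Ptgds and Igfbp2 was not tested.

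The genes outside the group whose levels were most like it were ranked in each region by their correlation over 18 mice with the mean standardized level of the restricted members, as a description. In striatum they were led by Fmod (r = 0.93), another small leucine-rich proteoglycan, by H2-Eb1 (0.92), which encodes an MHC class II chain, and by Mrc1 (0.90), a receptor of border macrophages. The other 7 were Mpzl2, Hcar1, Cdh1, Cd74, Ripor3, Efemp1 and Ms4a6c. In cortex Colec12 (r = 0.92), a scavenger receptor, and Mpzl2 (0.91), an adhesion protein, came first, followed by Itih2, Serping1, Spo11, Lmntd1, Mgp, Slc6a20a, Crabp2 and Slc6a12. In cerebellum Cdc42ep3 (r = 0.89) and Slc6a20a (0.87), a carrier of imino acids, came first, followed by Alx4, Hcar1, Efemp1, Arg1, Sde2, 1700047F07Rik, Colec12 and Tssk1. Colec12 and Slc6a20a were among the 10 in both cerebellum and cortex, Efemp1 and Hcar1 in both cerebellum and striatum, and Mpzl2 in both cortex and striatum, and 0 genes were among the 10 in all 3 regions. Genes with r above 0.8 numbered 58 in cerebellum, 15 in cortex and 36 in striatum. The low library of mouse M755 is 1 of the 18 points in cerebellum.

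No member differed between genotypes after adjustment over the genes of a region, by edgeR or by DESeq2. With edgeR and surrogate variables (hidden factors estimated from the counts), 0 of 10 members had an adjusted p under 0.05 in cerebellum, cortex and striatum, where 0.00551%, 0.0107% and 0.00539% of all genes tested did. At an unadjusted p under 0.05 there were 1 in cerebellum, 0 in cortex and 2 in striatum, where 2.75%, 8.47% and 7.44% of all genes passed. DESeq2 gave 1, 0 and 2 at that level and 0 after adjustment. The log2FC of Mbd5+/GT against WT was below 0 for 4, 9 and 7 of the 10 members, with medians of 0.03, -0.15 and -0.17. The medians of all genes tested were -0.0035, -0.0042 and -0.0099. The SE of a member's log2FC ran from 0.09 to 0.29 in cerebellum, 0.14 to 0.27 in cortex and 0.14 to 0.32 in striatum.

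The striatal difference was largest in Igfbp2. Its CPM level was 8.60, 24.2 and 53.7 (lowest, median and highest) in 10 Mbd5+/GT mice and 9.48, 35.4 and 75.0 in 8 WT mice. The groups overlapped over nearly their whole ranges, and 9 of 10 Mbd5+/GT mice were below the WT mean on the log2 scale. The fit gave a log2FC of -0.88 ± 0.32 (SE) with an edgeR adjusted p of 0.63 (unadjusted 0.016). The difference of mean log2 CPM without surrogate variables was -0.69, with a 2-sided exact permutation p of 0.134 over 43758 splits and of 0.143 over the 3500 splits within litters. By litter it was -0.67, 0.02 and -0.73 in litters 1, 2 and 3. Without the 2 striatum libraries low in striatal neuron markers the log2FC was -0.84 ± 0.24 (edgeR unadjusted p = 0.00475). The relation of Igfbp2 with the choroid plexus markers in striatum did not pass (r = 0.64, adjusted permutation p = 0.077). These markers had a median log2FC of -1.36 there, with 10 of 10 below 0 and 0 of 10 at an unadjusted p under 0.05. Their part in the Igfbp2 values was not tested.

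Ptgds in striatum stood at 261, 435 and 849.8 CPM in Mbd5+/GT and 362, 532 and 780.1 CPM in WT mice, and the groups overlapped. The log2FC was -0.36 ± 0.14 (edgeR adjusted p = 0.63, unadjusted 0.021), and 8 of 10 Mbd5+/GT mice were below the WT mean. The exact permutation p was 0.180 over all splits and 0.153 within litters, with differences of -0.44, 0.24 and -0.55 in the 3 litters. Foxd1 in cerebellum stood at 0.541, 0.895 and 1.39 CPM in Mbd5+/GT and 0.459, 1.14 and 1.78 CPM in WT mice. Its log2FC was -0.40 ± 0.18 (edgeR adjusted p of 1.00, unadjusted 0.034), and the exact permutation p was 0.289, with differences of 0.10, 0.13 and -0.81 in the 3 litters. All 3 of these members passed the unadjusted threshold only with surrogate variables in the fit. Without any, the unadjusted edgeR p was 0.063 for Igfbp2, 0.209 for Ptgds and 0.173 for Foxd1, and Foxd1 also missed it without the 2 cerebellum libraries low in cerebellar neuron markers (0.104).

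No restricted member was called between genotypes in cortex or striatum. In cortex Dcn stood at 8.26, 12.7 and 17.9 CPM in Mbd5+/GT and 7.56, 15.8 and 21.4 CPM in WT mice, with a log2FC of -0.18 ± 0.14 (edgeR adjusted p = 0.78). This value depended on single libraries. One was the WT library of mouse M751, which was below the mean of the 18 cortex libraries in all 8 restricted members. Without it, the log2FC in cortex was -0.31 for Dcn (edgeR unadjusted p = 0.0043), -0.37 for Slc6a13 (0.014) and -0.30 for Ptgds (0.025), with adjusted p of 0.19, 0.28 and 0.34. Other libraries moved the values the other way. Without the WT library of mouse M757 the log2FC of Dcn was -0.03, and without that of mouse M754 it was 0.09 for Slc6a13 and 0.07 for Ptgds, so that the last 2 changed sign. Over the 18 fits that each left out 1 mouse, 1 fit passed an unadjusted p of 0.05 for each of these 3 genes. In cerebellum Dcn had a log2FC of 0.02 ± 0.15, Lum of 0.00 ± 0.21 and Ogn of 0.17 ± 0.16. In striatum Slc22a6 had -0.25 ± 0.25, Lum -0.29 ± 0.28 and Ogn 0.03 ± 0.27. The genotype effect was not shown to differ between regions for any member, with 0 of 10 past an unadjusted p of 0.05 in edgeR's interaction test and 0 after adjustment, where 1.11%, 2.68% and 4.22% of all genes passed the unadjusted threshold for cerebellum and cortex, cerebellum and striatum, and cortex and striatum.

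**Figure D5:**
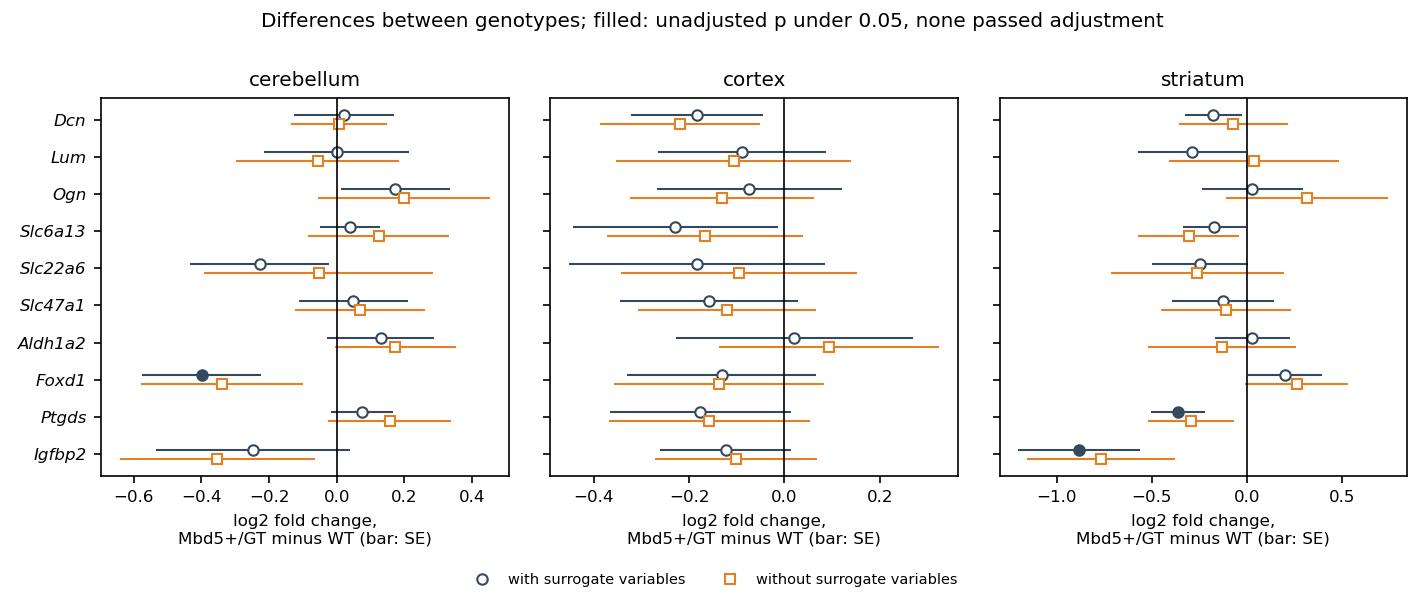
Log2 fold change of Mbd5+/GT against WT (x axis, with SE bars) for each gene and region, with surrogate variables (dark circles) and without (orange squares), where filled symbols have an unadjusted p under 0.05. Filled symbols are Foxd1 in cerebellum (-0.40) and Ptgds (-0.36) and Igfbp2 (-0.88) in striatum, all with surrogate variables.

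Genes of the related lists gave 0 adjusted calls by genotype in each region, in the same edgeR fits. Those named here passed an unadjusted p of 0.05 alone, with adjusted p above 0.3. In cortex these were Ptgs1, the cyclooxygenase that supplies the substrate of Ptgds (log2FC -0.22), Aldh1a3 (-0.58), a second retinaldehyde dehydrogenase, Crabp1 (-0.54), a carrier of retinoic acid inside cells, the transcription factors Tbx15 (-0.38) and Twist1 (-0.39), the proteoglycan gene Aspn (-0.24), the arachnoid gene Dpp4 (-0.32), the macrophage gene Mrc1 (-0.25) and the astrocyte gene Gfap (0.23). Of the 6 astrocyte markers 5 were below 0 in cortex, all but Gfap. In striatum the genes named were Dhrs3 (-0.27) of retinoid metabolism, Igfbp3 (-0.31), the laminin gene Lama1 (-0.31), the mural gene Vtn (-0.21) and the macrophage gene Lyve1 (-0.49). In cerebellum they were Igfbp5 (-0.27), Igfbp4 (-0.30), Aspn (-0.31), Ptgs2 (0.43), Dpp4 (0.40), Kcnj8 (-0.21), Gfap (0.23) and Neurod6 (-0.23). Choroid plexus markers in cortex stood out among the lists, with 9 of 10 higher in Mbd5+/GT mice at an unadjusted p under 0.05, where 3.96% of all genes were. They were led by Ttr (log2FC 3.35), Kcne2 (2.98), Slc4a5 (2.83) and Folr1 (2.57). Markers of 1 cell type can vary together over libraries, so the 9 are not separate results. Their sum in cortex overlapped between genotypes, from 10.2 to 1277 CPM in Mbd5+/GT and from 22.8 to 246 CPM in WT mice. In cerebellum and in striatum the log2FC was below 0 for 10 of 10. Ependymal markers were higher in 4 of 5 at that threshold, Tmem212 (1.35), Ccdc153 (1.28), Dynlrb2 (0.73) and Rarres2 (0.46). Ptgds and Igfbp2, which choroid plexus also expresses, had log2FC of -0.18 ± 0.19 and -0.12 ± 0.14 in cortex.

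Litters were compared in the same way, with genotype in the fit. By edgeR, 0 of 10 members differed between litters after adjustment in cerebellum, cortex and striatum. At an unadjusted p under 0.05 there were 2 in cerebellum (Slc6a13 and Ptgds), 0 in cortex and 1 in striatum (Lum), where 13.3%, 7.8% and 12.2% of all genes passed.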

How the data were processed

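RNA-seq of 54 libraries was used, from 3 regions of 18 mice grouped by the genotype and region in the labels. The deposited values are unnormalized gene counts, which the authors made with STAR 2.4.2 on GRCm38, with read quality checked by FastQC 0.10.1. The strand setting behind the counts is not given in the sources used here, so reads of overlapping genes are uncertain. Beside 47069 genes there were rows for 92 ERCC spike-ins, left out here. Of the identifiers, 46574 matched GENCODE annotation, from which merged exon lengths for RPKM were taken.

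A gene was tested where 8 or more libraries exceeded 4 counts, which left 18160 (cerebellum), 18661 (cortex) and 18546 (striatum) genes. Genotypes were compared per region with edgeR 4.0.16 (TMM, quasi-likelihood, robust) in R 4.3.3, with 2 surrogate variables in cerebellum and 4 in cortex and striatum (sva 3.50.0), with p-values adjusted over every tested gene by Benjamini-Hochberg. Regions and interactions were fitted over all libraries. DESeq2 1.42.0 was an alternative. CPM levels in log2 used a prior count of 2. Correlations used 100000 permutations, so 1e-05 is the smallest raw p they can give, and exact permutation tests were 2-sided. Scripts were tested on simulated data.

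The members, gene lists and motifs were chosen with earlier results of these data known, and some genes of the lists are not reported here. All members are named. Of each other list, genes at an unadjusted p under 0.05 between genotypes are named, at most 4 a list and region, and the 10 genes most like the restricted members in each region. Each mouse gave 1 library a region, and p-values measure the spread between mice. The main fits over the 54 libraries held no term for the mouse and treated the 3 libraries of a mouse as independent. The 3 libraries of a mouse share its number, and their deviations from group means had a median correlation of 0.164 (cerebellum and cortex), 0.0611 (cerebellum and striatum) and 0.0914 (cortex and striatum), against -0.009, -0.0049 and -0.0061 between mice. Leaving out the 4 libraries low in their region's neuron markers was an alternative chosen after seeing the data, as were splits within litters.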

Additional observations from a re-analysis of the deposited data

Results flagged for a closer look

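Each member's 3 regions and 2 genotypes gave 60 groups of libraries, in which the lowest and highest library were checked against the others. In 5 of them a library stood apart, where chance flags about 1 in 20 groups. The measure was the gap to the nearest library divided by the range of the group, both in log2 CPM.

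Of the 5, 2 came from the cerebellum library of Mbd5+/GT mouse M755, which was almost without cerebellar neuron markers. It had 0.576 CPM of Slc22a6 where the next lowest had 4.96 (gap over range 0.749), and 4.77 CPM of Slc6a13 where the next lowest had 10.6 (0.556). The striatum library of WT mouse M754, at 5.72% of the median of striatal neuron markers, had 5.01 CPM of Slc47a1 where the next highest WT library had 1.95 (0.605). The cortex library of WT mouse M751 had 5.99 CPM of Ogn where the next lowest WT library had 11.5 (0.558). The cortex library of WT mouse M757 had 2.06 CPM of Foxd1 where the next highest WT library had 1.09 (0.533). The region markers of these 2 cortex libraries were not low. Whether the region markers and the members share a cause in these libraries was not tested.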

How the results depend on the processing

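No called difference changed direction under the alternatives run. The counts of 9, 9 and 0 members called between cortex and striatum, between cerebellum and striatum and in interaction tests held in all alternatives run, as did 0 members called between genotypes after adjustment. Members at an unadjusted p under 0.05 between genotypes numbered 0 in striatum with no surrogate variables, with 1 surrogate variable fewer and with litter and sex as covariates, and 1 with no filter on low counts. In cerebellum they numbered 0 with no surrogate variables, with 1 fewer, with litter and sex as covariates and without the libraries low in neuron markers. Leaving out 1 mouse at a time, they ranged from 0 to 1 in cerebellum, 0 to 3 in cortex and 1 to 3 in striatum, and no member passed adjustment. Igfbp2 in striatum passed the unadjusted threshold in 18 of 18 such fits (log2FC -1.02 to -0.65), Ptgds in striatum in 16 and Foxd1 in cerebellum in 11. Without litter 2, Slc6a13 in striatum had a log2FC of -0.48 (edgeR unadjusted p = 0.022). Members called between cerebellum and cortex numbered 1 with no filter and 1 with WT mice only, against 2. Members that went with Dcn in striatum numbered 4 without the 2 farthest mice, against 9, and relations between regions 0, against 1. The mouse as a replicate block left 9, 9 and 2 members called between regions and changed no call, with Igfbp2 between cerebellum and cortex at 0.61 (edgeR adjusted p = 0.0087). The causes of these changes were not tested.

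Depth limits Foxd1 and Lum most, with as few as 9 and 5 reads in a library, so that their striatum values carry the largest counting error. Both were left out in striatum where at least 10 counts in every library were asked for. The 4 libraries low in their region's neuron markers were kept, since the labels give no reason to leave them out.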
